A study of Homo sapiens with 6 samples.

Results

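The genes of DNA replication, from the licensing of origins to the enzymes of the replication fork, were examined in HCCLM3 cells with and without overexpression of *PON1*. HCCLM3 is a human hepatocellular carcinoma (HCC) cell line with low *PON1* expression, and *PON1* encodes a secreted enzyme made by hepatocytes. The 50 genes were taken by symbol from the deposited table, where each was found exactly 1 time among 20381 genes. PON1-OE cells had been infected with a lentivirus carrying the *PON1* coding sequence and selected with puromycin, and negative control (NC) cells carried the control lentivirus, an empty vector by the design text of the series. Poly(A) RNA was sequenced from 3 PON1-OE and 3 NC libraries. The promoter of the construct, the number of clones and the derivation of the replicates are not given in the sources used here, so n counts libraries of a single cell line. The p-values refer to variation between these libraries, which the fit estimates in part from all genes tested. The study's methods and the design text of the series also differ in serum content, and the latter places lysis shortly after transfection where the sample labels name stable cells.

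Replication begins with licensing. The origin recognition complex (ORC) binds DNA and, with CDC6 and CDT1, loads the MCM2-7 helicase onto it, while geminin (*GMNN*) holds CDT1 back outside this window. A kinase made of CDC7 and DBF4, together with MCM10, CDC45 and the GINS complex, then turns the loaded helicase into a moving fork, where polymerases, the PCNA clamp with its loader RFC, and the enzymes that join Okazaki fragments copy the DNA. Many of these genes are transcribed around the entry into S phase under the control of E2F factors. Resting hepatocytes hardly express them, and they are high in dividing liver cells and in HCC.

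The letters that E2F factors are known to bind were looked up in the RefSeq promoter windows of the replication genes (GRCh38.p14), in the 250 bases before each annotated start. The motifs searched were TTTGGCGC, TTTCGCGC, TTTCCCGC and TTTGCCGC on both strands. A window was given for 44 of the 50 genes, and *MCM4*, *MCM5*, *GINS4*, *POLD3*, *RPA2* and *RPA3* had none. At least 1 match stood before 16 of the 44 genes (36.4%), against 5.82% of the 9736 genes tested that had a window and 3.40% of the 27305 genes of the promoter table. The stretches below show the match, in capitals, for 4 of the genes whose values are described in detail. *MCM6* is added, which had the same overlapping pair of motifs at more than 1 place. *ORC3*, *CDT1* and *TYMS*, also described in detail but with smaller differences, had matches that are not shown. The stretches read 5′ to 3′ on the strand of the gene.
PCNA, chr20:5126663-5126692, minus strand, outside any gene of GENCODE v29: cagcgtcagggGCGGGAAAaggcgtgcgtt
UHRF1, chr19:4909476-4909500, plus strand, in an exon of the gene: gccgagttttcGCGGGAAAaaaatc
UHRF1, chr19:4909973-4910002, plus strand, in an intron of the gene: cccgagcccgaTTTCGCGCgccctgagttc
RFC3, chr13:33818083-33818112, plus strand, in an exon of the gene: atttggagctcGCGGGAAAacttgtctctg
LIG1, chr19:48170440-48170469, minus strand, in an exon of the gene: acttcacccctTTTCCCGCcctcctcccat
MCM6, chr2:135876577-135876606, minus strand, outside any gene of GENCODE v29: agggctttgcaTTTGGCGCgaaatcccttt
MCM6, chr2:135876515-135876544, minus strand, outside any gene of GENCODE v29: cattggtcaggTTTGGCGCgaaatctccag
The GCGGGAAA before *PCNA*, *UHRF1* and *RFC3* is the reverse complement of the TTTCCCGC before *LIG1*, and the matches began 59, 14, 55 and 114 bases before the respective starts. The letters CCAAT, a promoter box searched on both strands, stood before 26 of the 44 genes (59.1%), against 41.8% of the genes tested. A match describes the letters of a window and not the binding of a factor.

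The replication genes differed little between PON1-OE and NC. All 50 passed the filter on low counts and were tested within a single fit over 11958 genes (edgeR's quasi-likelihood test on the rounded counts, Benjamini-Hochberg adjustment over all genes tested). Of the 50, 22 were higher and 28 lower in PON1-OE, with a median log2FC of −0.0074, beside −0.0025 over all genes tested. The log2FC, the log2 of the level in PON1-OE over that in NC, lay between −0.18 for *UHRF1* and 0.19 for *LIG1*, and it was within 0.1 of zero for 39 of the 50 genes. None of the 50 had an adjusted p under 0.05 in edgeR, where 0.677% of all genes tested did, and the adjusted p of the 50 ranged from 0.278 to 0.996. limma-voom also called 0 of the 50. DESeq2 called 0 of the 26 to which it gave an adjusted p, and it gave none to the other 24, *LIG1* and *RFC1* among them. Without NC replicate 2 *UHRF1* passed, with a log2FC of −0.26 and an adjusted p of 0.0334 in edgeR's test.

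At an unadjusted p under 0.05, 4 of the 50 genes (8%) were lower in PON1-OE, *UHRF1*, *PCNA*, *ORC6* and *RFC1*, where 5.17% of all genes tested were called in that direction. A single gene, *LIG1* (2%), was higher, where 5.91% of all genes tested were called. DESeq2 called 2 of the 50 at this threshold, both lower, and limma-voom 5. In edgeR the count of 5 became 3 without NC replicate 1, 1 without NC replicate 3 and 0 without PON1-OE replicate 3. The share of all genes tested was counted for the main fit only, so these other counts have no background beside them. The 3 PON1-OE libraries all lay below the NC libraries for 3 genes (6%), *ORC6*, *PCNA* and *RFC3*, where 7.74% of all genes tested did. They all lay above the NC libraries for 2 genes (4%), *GINS1* and *LIG1*, where 8.32% of all genes tested did. These shares are near those of the whole table.

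The intervals show how large a difference these libraries leave room for. The half-width of the 95% confidence interval of the log2FC had a median of 0.15 over the 50 genes and 0.16 over all genes tested. The interval was inside a change of 1.5-fold in either direction, the fold threshold of the study, for 49 genes, inside 1.3-fold for 48 and inside 1.2-fold for 34. *POLE2*, an accessory subunit of polymerase epsilon, was the exception at 1.5-fold, with a mean of 34.5 counts per library and an interval from −0.64 to 0.54. The other 49 genes had at least 201 counts on average and intervals within −0.38 and 0.36. In bulk RNA, fewer cells in S phase and less RNA per cell cannot be told apart.

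**Figure D1:**
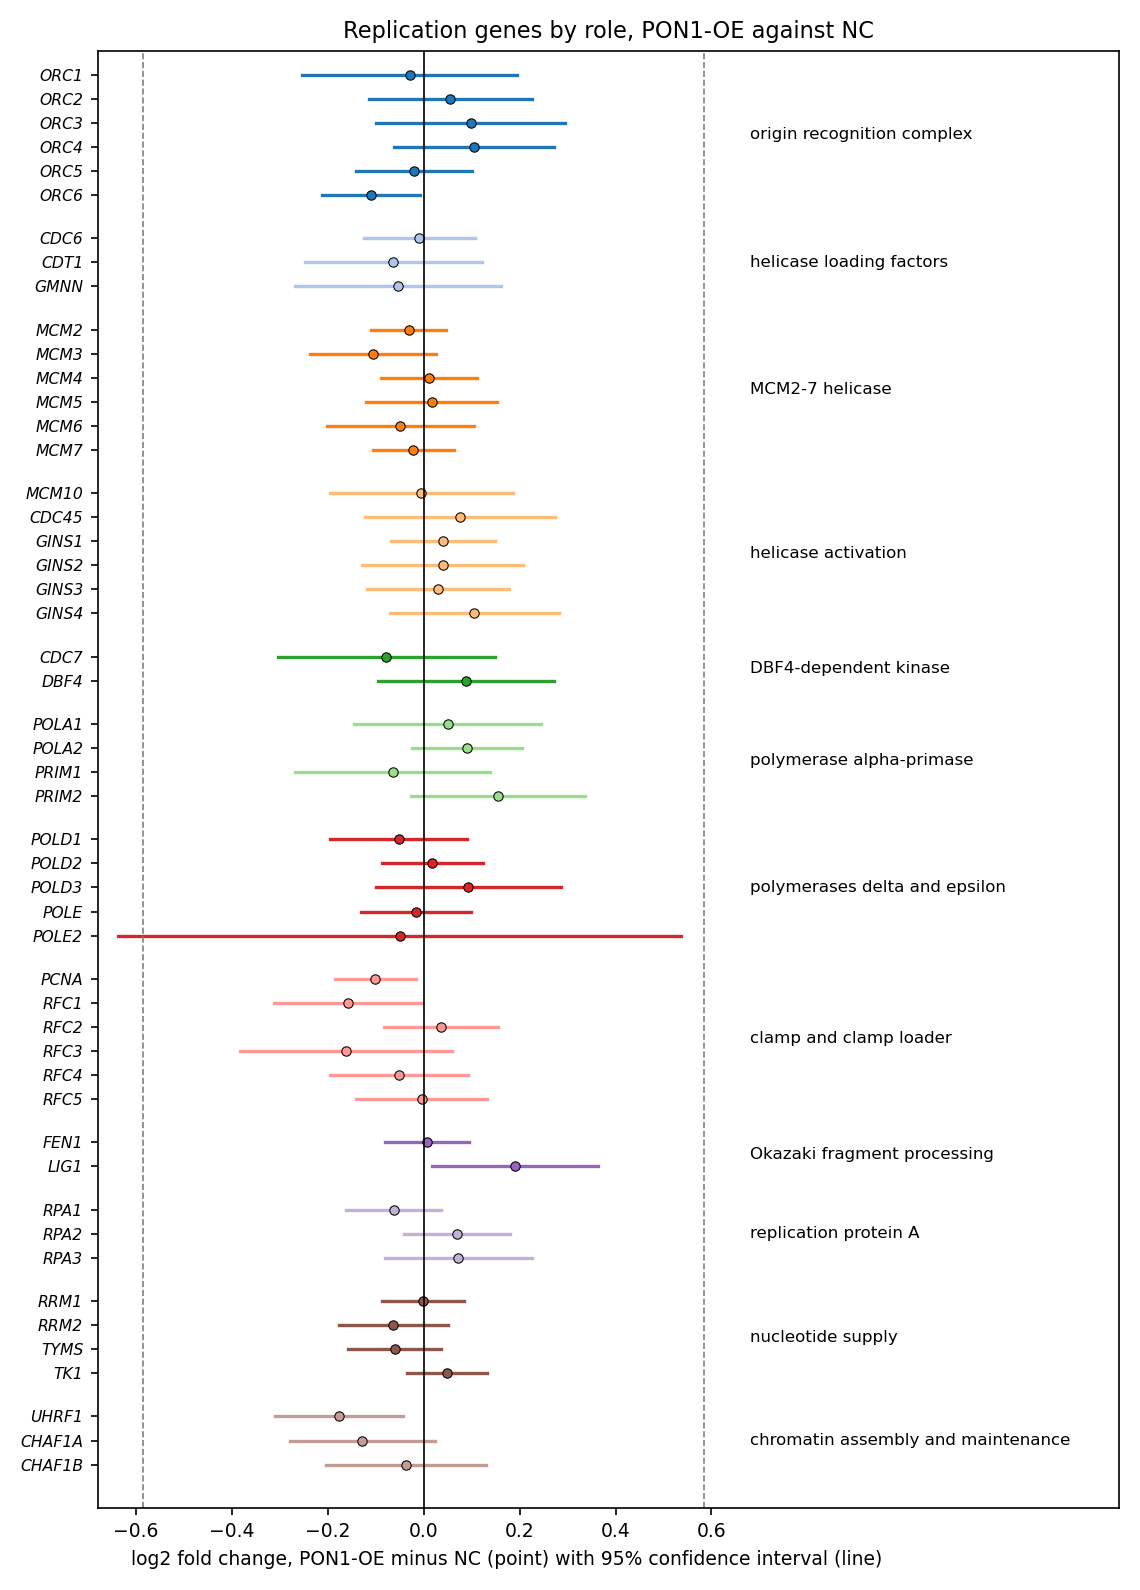
Fitted log2 fold change of each of the 50 replication genes in PON1-OE against NC (point) with its 95% confidence interval (line), grouped and coloured by role, with dashed lines at a change of 1.5-fold. The points lie between −0.18 and 0.19, and *POLE2* has the interval that crosses a dashed line.

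Among the 6 subunits of ORC, which marks origins, 3 were higher and 3 lower. Levels here and below are in TMM-normalized CPM, read counts relative to the scaled library total, and libraries are listed by replicate number. *ORC6*, the smallest subunit, stood at 91.2, 90.0 and 88.2 CPM in the NC libraries against 79.5, 85.5 and 84.6 CPM in the PON1-OE libraries. The groups did not overlap. The log2FC was −0.11 (SE 0.0491), a level 7.34% lower, and neither the adjusted p of 0.408 from edgeR's quasi-likelihood test nor the exact permutation test over libraries (p = 0.1, two-sided, the smallest that 3 libraries against 3 allow) passed 0.05. *ORC4*, a subunit of the ATPase ring, leaned the other way, with 22.4, 22.3 and 24.6 CPM in NC against 25.1, 23.3 and 26.2 CPM in PON1-OE (log2FC 0.10, SE 0.0805, adjusted p = 0.690). *ORC3*, a further subunit, had 16.7, 16.0 and 19.99 CPM in NC against 18.9, 18.8 and 18.6 CPM in PON1-OE (log2FC 0.098, SE 0.0948, adjusted p = 0.775). Both overlapped between the groups. *ORC1*, *ORC2* and *ORC5* had log2FC values of −0.029, 0.055 and −0.020.

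For the helicase loading factors no difference exceeded the spread between libraries. *CDC6*, the ATPase that recruits the helicase to ORC, had 68.6, 65.0 and 72.9 CPM in NC against 70.2, 67.6 and 67.1 CPM in PON1-OE (log2FC −0.0097, 95% interval −0.13 to 0.11, adjusted p = 0.972). *CDT1*, its partner in loading, had 44.2, 37.0 and 49.5 CPM in NC against 40.5, 46.1 and 38.2 CPM in PON1-OE (log2FC −0.064, 95% interval −0.25 to 0.12, adjusted p = 0.854). The 3 NC libraries of *CDT1* alone spanned the whole range of the PON1-OE libraries. *GMNN*, the inhibitor of CDT1, had a mean of 13.9 ± 0.437 CPM in NC against 13.4 ± 1.42 CPM in PON1-OE (± SD over n = 3 libraries).

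The 6 genes of the MCM2-7 helicase, the ring that unwinds DNA, summed to 1452, 1307 and 1445 CPM in the NC libraries against 1429, 1373 and 1335 CPM in the PON1-OE libraries. The sums of PON1-OE lay inside the range of NC. *MCM2* had 353, 326 and 346 CPM in NC against 340, 331 and 332 CPM in PON1-OE (log2FC −0.031, 95% interval −0.11 to 0.047, adjusted p = 0.826). *MCM5* had 82.4, 67.6 and 82.5 CPM in NC against 80.8, 78.9 and 75.04 CPM in PON1-OE (log2FC 0.016, 95% interval −0.12 to 0.15, adjusted p = 0.955). In both genes NC replicate 2 was the lowest of the 6 libraries. *MCM3* had the lowest log2FC of the ring, −0.11 (SE 0.0630, adjusted p = 0.568), and *MCM4*, *MCM6* and *MCM7* had values of 0.011, −0.049 and −0.022.

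Of the 6 genes that activate the helicase, 5 were higher and 1, *MCM10*, was lower, none past an unadjusted p under 0.05. *GINS4*, a subunit of the GINS complex that joins the helicase with CDC45, had 19.1, 19.6 and 20.6 CPM in NC against 21.2, 19.9 and 22.8 CPM in PON1-OE (log2FC 0.11, SE 0.0848, adjusted p = 0.709). *GINS1* did not overlap between the groups, with 63.3, 61.7 and 63.0 CPM in NC against 64.6, 64.3 and 64.3 CPM in PON1-OE, but its log2FC was only 0.040 (SE 0.0522, adjusted p = 0.839). *CDC45*, *GINS2* and *GINS3* had log2FC values of 0.075, 0.039 and 0.030. The summed level of the 6 genes was 192.9 ± 2.09 CPM in NC against 198.9 ± 2.12 CPM in PON1-OE (± SD over n = 3 libraries), and this was the single role of 12 whose sums did not overlap. The kinase that triggers this step was split, with a log2FC of −0.078 for the catalytic subunit *CDC7* and 0.088 for its activator *DBF4*.

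The polymerases did not share a direction. In the polymerase alpha-primase complex, which lays down the RNA-DNA primers, *PRIM2*, the large primase subunit, had 22.6, 20.003 and 21.4 CPM in NC against 24.5, 21.2 and 25.6 CPM in PON1-OE (log2FC 0.15, SE 0.0875, adjusted p = 0.547). PON1-OE replicate 2 lay inside the range of NC. *POLA2* and the catalytic *POLA1* had log2FC values of 0.090 and 0.050, and *PRIM1*, the catalytic primase subunit, −0.065. Polymerase delta, which extends the lagging strand, had values of −0.052 for the catalytic *POLD1*, 0.018 for *POLD2* and 0.093 for *POLD3*. The catalytic subunit of polymerase epsilon, *POLE*, which extends the leading strand, stood at 62.2 ± 0.802 CPM in NC against 61.5 ± 2.71 CPM in PON1-OE (± SD over n = 3 libraries), a log2FC of −0.016.

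The clamp and its loader held 5 lower genes and 1 higher gene, *RFC2* (log2FC 0.036). *PCNA*, the ring that tethers polymerases to DNA, had 226, 207 and 221 CPM in NC against 204, 202 and 203 CPM in PON1-OE. The PON1-OE libraries lay close together and below all NC libraries. The log2FC was −0.10 (SE 0.0408), a level 6.76% lower with a 95% interval from 12.1% lower to 1.11% lower, and edgeR's quasi-likelihood test gave an unadjusted p of 0.0221 and an adjusted p of 0.356. Over the 13 alternatives the log2FC of *PCNA* stayed between −0.13 and −0.073, with an adjusted p of 0.181 to 0.742.

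*RFC1*, the largest subunit of the clamp loader, had 38.9, 41.6 and 43.6 CPM in NC against 41.0, 34.3 and 35.9 CPM in PON1-OE (log2FC −0.16, SE 0.0740, adjusted p = 0.442). PON1-OE replicate 1 lay among the NC libraries. *RFC3*, a small subunit, had 13.1, 12.3 and 14.8 CPM in NC against 12.3, 11.3 and 12.3 CPM in PON1-OE (log2FC −0.16, SE 0.106, adjusted p = 0.618). Its groups did not overlap, but the lowest NC library and the highest PON1-OE library agreed to the digits given. *RFC4* and *RFC5* had log2FC values of −0.052 and −0.0046.

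In the processing of Okazaki fragments, *LIG1*, the ligase that seals the lagging strand, had the highest log2FC of the 50 genes. Its levels were 20.3, 18.5 and 19.8 CPM in NC against 21.0, 23.3 and 22.5 CPM in PON1-OE, without overlap. The log2FC was 0.19 (SE 0.0836), a level 14.1% higher with a 95% interval from 1.13% to 28.7%, and edgeR's quasi-likelihood test gave an unadjusted p of 0.0337 and an adjusted p of 0.402. Over the alternatives its log2FC stayed between 0.15 and 0.23. In GENCODE v29, 179 exonic bases of *LIG1* are shared with a gene on the opposite strand, and whether reads were counted by strand is not given in the sources used here. Such sharing was found for 16 of the 50 genes on the opposite strand and for 6 on the same strand. It was longer than for *LIG1* in *GINS4* (1159 bases), *MCM2* (1113) and *TYMS* (967), opposite strand, and in *POLA2* (2012) and *RRM2* (1077), same strand, among others. Its effect on the levels was not tested. *FEN1*, the flap endonuclease of Okazaki fragments, had a log2FC of 0.0071 (95% interval −0.081 to 0.095).

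Replication protein A, which coats single-stranded DNA, had log2FC values of −0.063 for *RPA1*, 0.069 for *RPA2* and 0.072 for *RPA3*, each with a 95% interval that included zero. Among the genes of nucleotide supply, *RRM2*, the small subunit of ribonucleotide reductase that is limiting in S phase, had 77.9, 74.9 and 73.0 CPM in NC against 72.7, 67.8 and 75.7 CPM in PON1-OE (log2FC −0.064, 95% interval −0.18 to 0.050, adjusted p = 0.730). *TYMS*, thymidylate synthase, had 135, 130 and 141 CPM in NC against 130, 136 and 124 CPM in PON1-OE (log2FC −0.061, 95% interval −0.16 to 0.037, adjusted p = 0.690). The libraries of both genes overlapped. *RRM1*, the large subunit of the reductase, was between 133.2 and 134.4 CPM in every library, a log2FC of −0.00087 (95% interval −0.086 to 0.085). Thymidine kinase, *TK1*, had a log2FC of 0.048 (95% interval −0.035 to 0.13).

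All 3 genes of chromatin assembly and maintenance were lower in PON1-OE. *UHRF1*, which guides the maintenance methyltransferase to newly copied DNA, had 134, 109 and 127 CPM in NC against 118, 109 and 101 CPM in PON1-OE. NC replicate 2 lay within the range of PON1-OE, so the groups overlapped (exact permutation test over libraries, two-sided p = 0.2). The log2FC was −0.18 (SE 0.0643), a level 11.5% lower with a 95% interval from 19.3% to 2.90% lower, and edgeR's quasi-likelihood test gave an unadjusted p of 0.0123 and an adjusted p of 0.278. Without NC replicate 2 the log2FC was −0.26 and the adjusted p 0.0334, and over the other alternatives and libraries the adjusted p reached 0.718. *CHAF1A*, the large subunit of chromatin assembly factor 1, which places histones behind the fork, had 42.9, 38.2 and 42.4 CPM in NC against 39.6, 38.9 and 34.2 CPM in PON1-OE (log2FC −0.13, SE 0.0728, adjusted p = 0.547). In this gene too, NC replicate 2 lay among the PON1-OE libraries. *CHAF1B*, its partner, had a log2FC of −0.038.

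**Figure D2:**
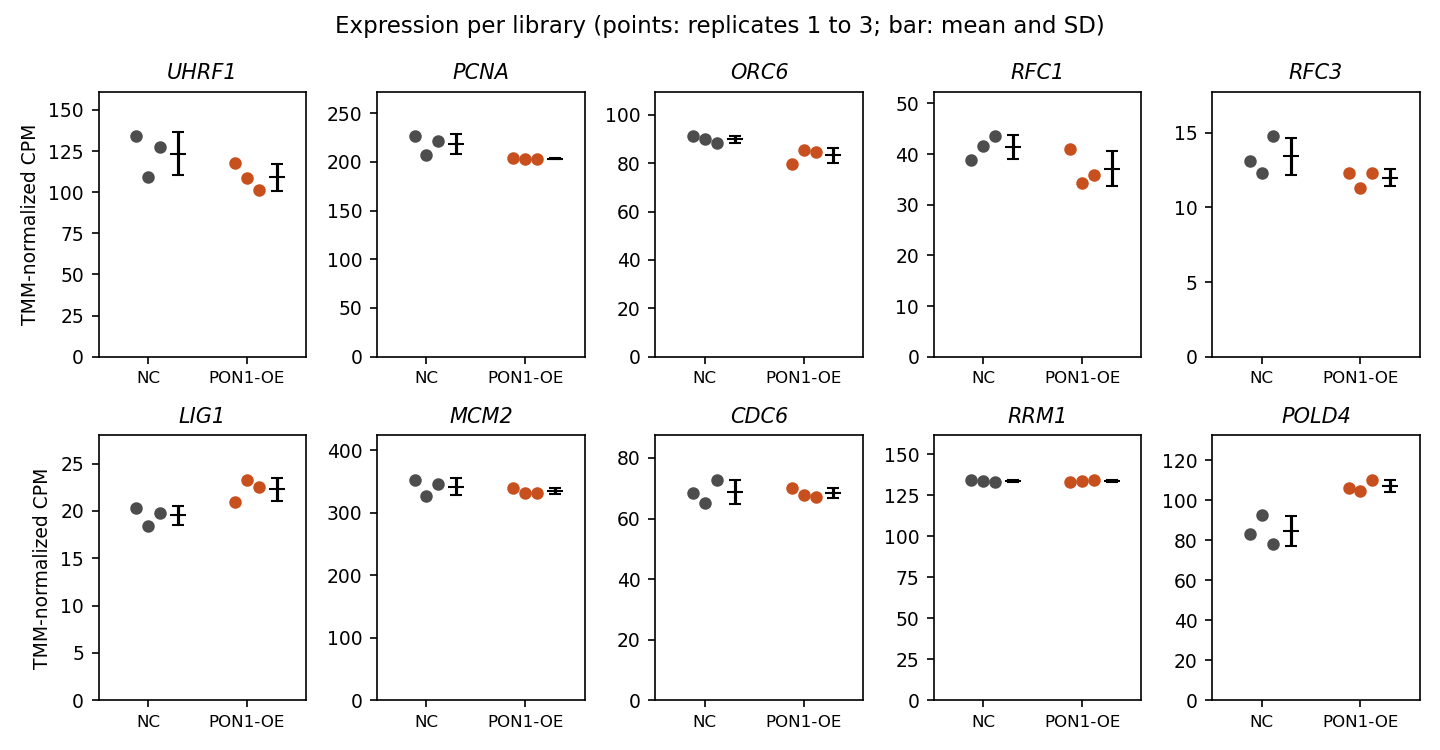
TMM-normalized CPM (vertical axes from 0) of 9 replication genes and of *POLD4* in the 3 NC (grey) and 3 PON1-OE (orange) libraries, with the mean and SD as a bar. *RRM1* sits between 133.2 and 134.4 CPM in all 6 libraries, *UHRF1* overlaps through NC replicate 2, and *POLD4* is higher in every PON1-OE library.

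The spread within NC was as large as the distance between the groups. As log2 CPM against the mean of NC, the 50 genes had a median of 0.029, −0.064 and 0.046 in the NC libraries, by replicate number, against 0.031, −0.019 and −0.0043 in the PON1-OE libraries. NC replicate 2 was the lowest of the 6 libraries for 19 of the 50 genes, and PON1-OE replicate 2 for 12. The summed level of the 50 genes was 4149, 3865 and 4153 CPM in NC against 4087, 3992 and 3934 CPM in PON1-OE, so that every PON1-OE library lay inside the range of NC. Over the counts of all genes NC replicate 2 stood farther from NC replicates 1 and 3 (chi-square per degree of freedom 3.10 and 3.45) than these did from each other (2.11). PON1-OE replicate 2 likewise stood farther from PON1-OE replicates 1 and 3 (4.11 and 3.73) than these did from each other (2.40). NC replicate 2 was also the deepest library, and its part in these values was tested only by leaving it out. Without NC replicate 2 the median log2FC of the 50 genes was −0.039 with 31 genes lower, and without PON1-OE replicate 3 it was 0.0097 with 22 genes lower.

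**Figure D3:**
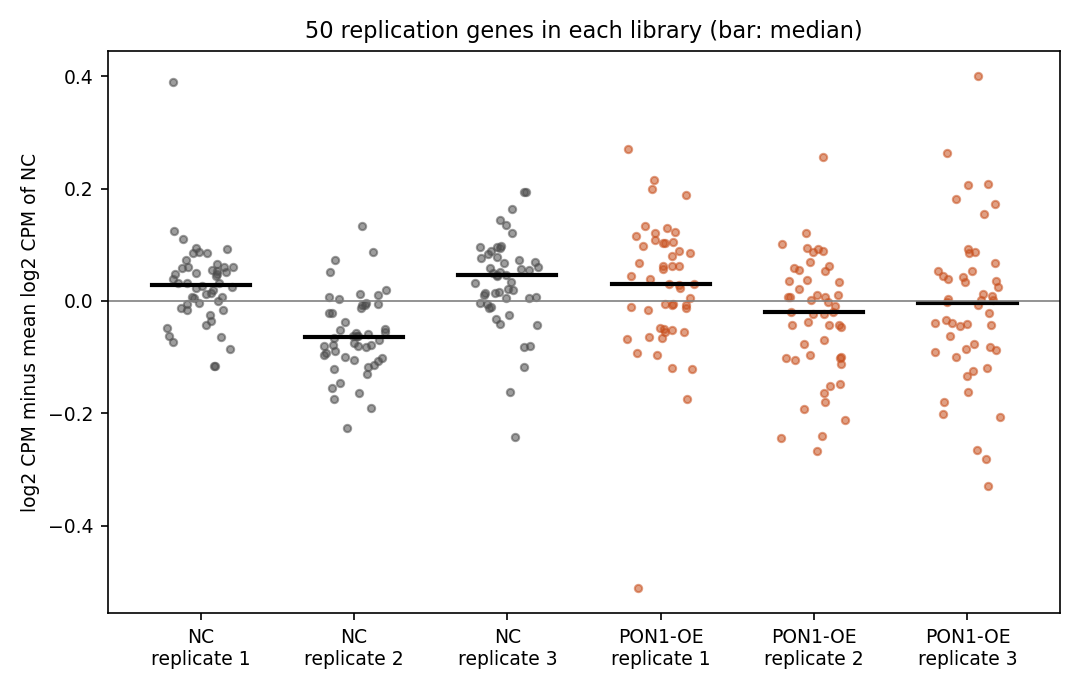
Each point is 1 of the 50 replication genes in the library named on the horizontal axis, and the vertical axis gives its log2 CPM minus its mean log2 CPM in NC; the bar is the median. The median of NC replicate 2, −0.064, is the lowest of the 6 libraries, and those of the PON1-OE libraries lie between −0.019 and 0.031.

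Per kilobase of the longest coding transcript in GENCODE v29, the levels of the 50 genes spanned 162-fold, from 1.16 CPM per kb for *POLE2* to 188 CPM per kb for *MCM7*, with a median of 15.0. After *MCM7* the next levels were 173 CPM per kb for *TK1*, 155 for *PCNA*, 93.3 for *MCM2* and 79.9 for *TYMS*. Over all libraries the range of *MCM7* overlapped that of *TK1*, and *PCNA* reached into the range of *TK1*. Within each library, however, *MCM7* was above *TK1* and *TK1* above *PCNA*. Within the helicase ring, whose subunits assemble in equal numbers, the level per kb ran from 15.9 for *MCM6* to 188 for *MCM7*, and within ORC from 3.57 for *ORC4* and 3.82 for *ORC1* to 50.9 for *ORC6*. The lower end was shared by *POLA1* (2.998 CPM per kb), *ORC4*, *ORC1* and *MCM10* (3.85), and the libraries of the last 3 overlapped. These levels depend on the transcript chosen for the length. Estimated counts that were not whole numbers occurred for 9 of the 50, among them *MCM7*, *TK1*, *TYMS*, *ORC4* and *RFC5* in every library.

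**Figure D4:**
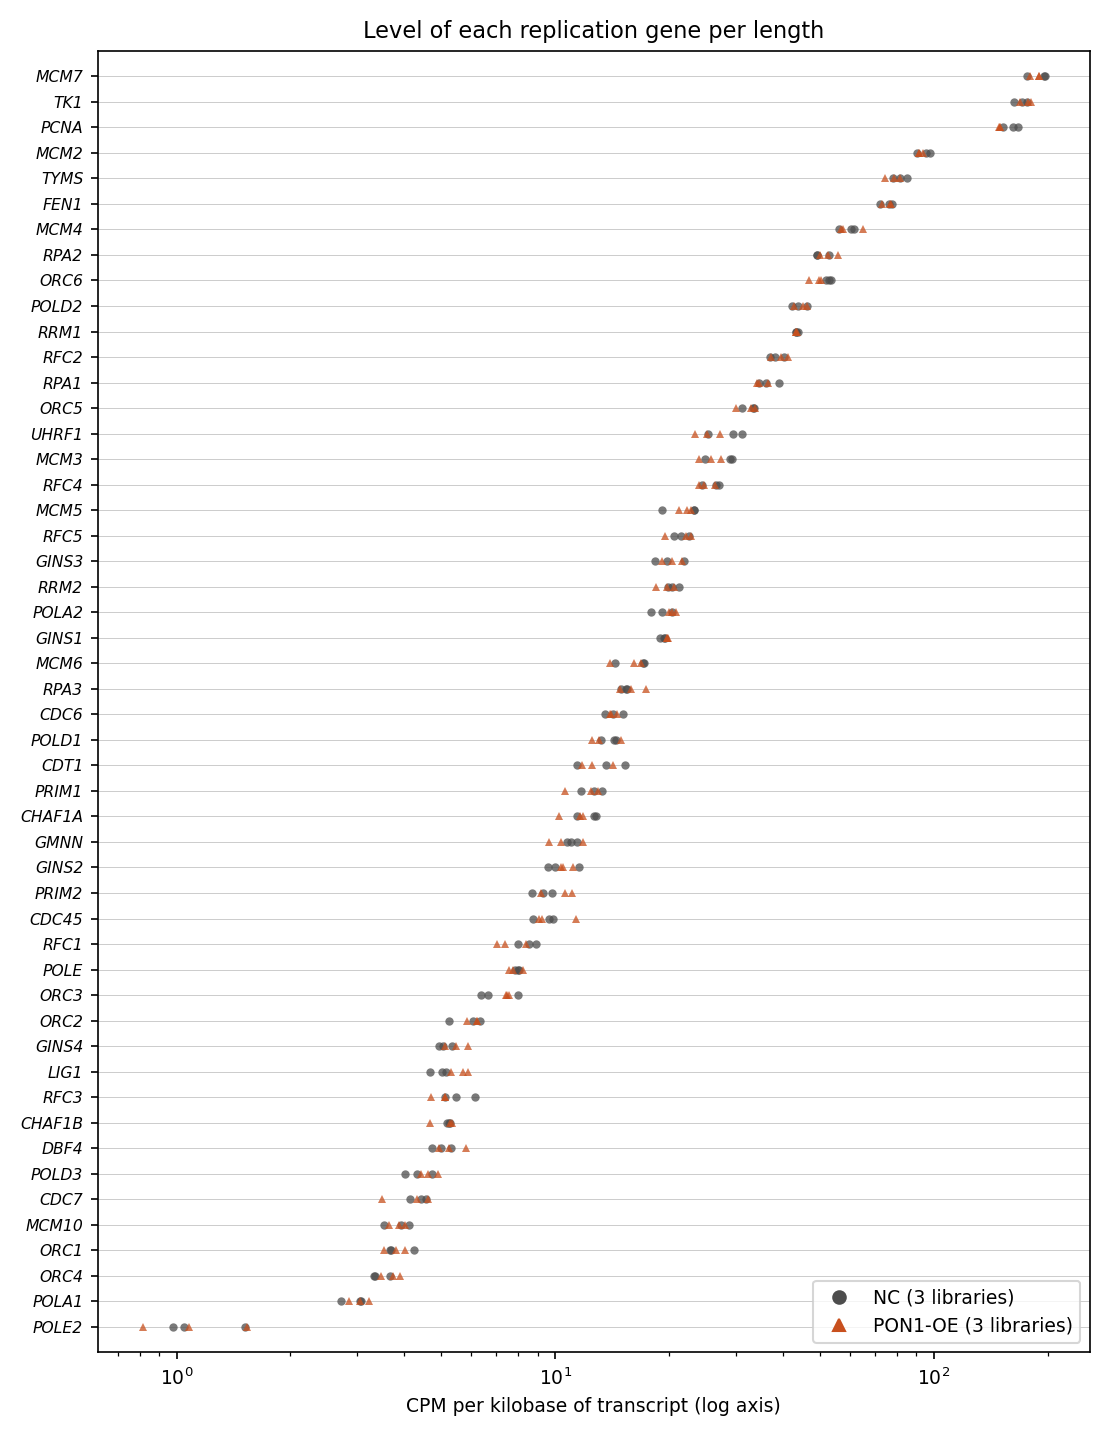
Level of each replication gene in CPM per kilobase of transcript on a log axis, ordered by the mean, with 3 NC libraries as circles and 3 PON1-OE libraries as triangles. The order runs from *POLE2* at 1.16 to *MCM7* at 188, and the symbols of the groups overlie each other for nearly all genes.

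The genes with an E2F-type match upstream had a median log2FC of −0.052 (n = 16, 11 lower and 5 higher), and those with a window and no match a median of −0.0074 (n = 28, 17 lower and 11 higher), a description with no test. The 6 genes without a window all had a log2FC above zero, from 0.011 for *MCM4* to 0.11 for *GINS4*. The split thus leaves out higher genes only. Of 20 regulators of the E2F and RB pathway, which controls this program, 7 were higher and 13 lower, with 0 past an adjusted p under 0.05 in edgeR and 2 (10%) past an unadjusted p under 0.05, both lower, where 5.17% of all genes tested were called in that direction. These were *E2F1*, an activating E2F (log2FC −0.21, SE 0.0904, adjusted p = 0.397), and *TFDP2*, a dimerization partner of E2F factors (log2FC −0.24, SE 0.105, adjusted p = 0.403), both named after their values were seen. *E2F1* was at 53.9, 40.1 and 52.8 CPM in NC against 46.6, 40.8 and 39.5 CPM in PON1-OE, with NC replicate 2 again among the PON1-OE libraries.

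Another 45 genes of replication outside the list, covering checkpoint factors, further polymerase subunits and fork protection, were 20 higher and 25 lower, with a median log2FC of −0.012. At an unadjusted p under 0.05 in edgeR, 2 (4.44%) were higher and 2 (4.44%) lower, where 5.91% and 5.17% of all genes tested were called. The lowest log2FC was that of *CLSPN*, −0.30 (SE 0.0880, adjusted p = 0.168 in edgeR's test), named after its values were seen. For this gene every PON1-OE library lay below every NC library. Of the 45 genes, 1 passed an adjusted p under 0.05. *POLD4*, the smallest subunit of polymerase delta, had 82.9, 92.8 and 78.2 CPM in NC against 106, 104 and 110 CPM in PON1-OE. The PON1-OE libraries all lay above the NC libraries. The log2FC was 0.34 (SE 0.0562), a level 26.4% higher with a 95% interval from 16.5% to 37.0%, and edgeR's quasi-likelihood test gave an adjusted p of 0.00682. It rose to 0.0886 without NC replicate 3, where the log2FC was 0.28, and it was under 0.05 in the other 12 alternatives. The estimated counts of *POLD4* were not whole numbers in any library, and 650 of its exonic bases are shared on the same strand with the gene AP003419.1. The effect of this overlap on its level was not tested. The 3 subunits of polymerase delta among the 50 genes, which lie on other loci, were at −0.052 to 0.093 in log2FC, as given above.

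Genes of the G2 and M phases, which follow replication, mostly had a log2FC above zero in the same libraries. Of 20 such markers 17 were higher and 3 lower in PON1-OE, with a median log2FC of 0.12 and 0 past an adjusted p under 0.05 in edgeR (smallest adjusted p = 0.145). At an unadjusted p under 0.05, 6 (30%) were called, all higher, where 5.91% of all genes tested were called in that direction. For 8 of the 20 every PON1-OE library lay above every NC library, where 8.32% of all genes tested did. The summed level of the 20 markers was 1054 to 1136 CPM in NC and 1140 to 1244 CPM in PON1-OE, without overlap. As log2 CPM against the mean of NC, their median was 0.075, −0.059 and 0.0080 in the NC libraries against 0.16, 0.046 and 0.086 in the PON1-OE libraries, so that on this measure PON1-OE replicate 2 lay below NC replicate 1. Whether this difference between mitotic and replication genes exceeds the spread of such lists was not tested. By flow cytometry of this cell line, the study reported arrest at G0/G1 and fewer cells in G2/M with *PON1* overexpression. Shares of cells and RNA levels of markers are unlike measures, and their relation was not tested.

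The labels were checked against the data. *PON1* had 0, 2 and 3 rounded counts in NC and 155, 181 and 167 in PON1-OE. The sample labels call the cells hepatocytes, but among the hepatocyte markers *ALB*, *APOA1*, *TTR* and *SERPINA1* were under 1 CPM in every library and *AFP* reached 1.10 CPM, while *KRT8*, *KRT18* and *HNF4A* were expressed, the last at 72.4 to 82.4 CPM, and *APOB* was at 3.75 to 6.23 CPM. Of 6 immune cell markers 4 were under 1 CPM in every library, *PTPRC* and *CD3E* at 0, while *CD68* was at 206 to 248 CPM and *ITGAM* at 4.48 to 5.88 CPM. Of 6 fibroblast markers 4 were under 1 CPM in every library, *COL1A1* among them, while *LUM* was at 11.1 to 15.98 CPM and *DCN* at 3.40 to 6.69 CPM. Of 5 endothelial markers 3 were under 1 CPM in every library, *CDH5* among them, while *PECAM1* was at 12.6 to 15.9 CPM and *KDR* at 8.03 to 11.4 CPM. The summed endothelial markers were at 22.1 to 24.8 CPM in NC and 25.3 to 28.0 CPM in PON1-OE, and the sums of the hepatocyte, fibroblast and immune markers overlapped between the groups. Their part in the results was not tested. The libraries held 15706672 to 17948383 estimated counts.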

How the data were processed

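RNA-seq of 3 PON1-OE and 3 NC HCCLM3 libraries was analyzed. The table that the authors deposited gives an estimated count for each gene and library, not normalized, and 10.5% of its values were not whole. The submitters' processing notes name Bowtie2 2.2.8, HISAT2, StringTie 1.3.1 and DESeq2 without their roles, while genome build, annotation and strand setting are not given in the sources used here. The design assumed whole counts, so values were rounded. In R 4.3.3 with edgeR 4.0.16, filterByExpr kept 11958 genes, which were scaled by TMM and tested by edgeR's quasi-likelihood test (glmQLFit, glmQLFTest) without covariates, with Benjamini-Hochberg adjustment over all genes tested. The procedure was tested on simulated counts in which 200 genes were changed. At an adjusted p under 0.05 it recovered 36.9% of the genes changed by 0.2 in log2FC, 69.0% at 0.4 and 85.7% at 0.8. The simulated libraries were independent, with a spread set by the level of each gene. This simulation called 135 genes, where the fit of the data called 81. The rates are therefore a check of the procedure and not the recovery for the 50 genes. Intervals are 95% confidence intervals of the fitted log2FC. Their SE uses a variance moderated across genes. It can exceed the spread of a gene's own libraries, as for *RRM1* (within-group SD 0.0058 in log2 CPM, SE 0.0410). Coordinates, exons and lengths came from GENCODE v29, and promoter windows from RefSeq. An exon was called shared from 50 common bases.

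The members and lists were chosen with earlier results of these data known. Full values are given for members with an unadjusted p under 0.05 without overlap, the 5 largest log2FC in each direction, *MCM2*, *MCM5*, *CDC6*, *CDT1*, *PCNA*, *RRM2* and *TYMS*, and for other listed genes past an adjusted p under 0.05. *GINS1*, *RRM1* and *POLE2* and, from the other lists, *E2F1*, *TFDP2* and *CLSPN* were singled out after their values were seen. Alternatives were RLE factors, library totals without TMM, no filter, a minimum of 10 counts in every library, DESeq2 1.42.0, limma-voom (limma 3.58.1), the replicate number as a block, an added change of over 1.5-fold and each library left out. Pairs of libraries of a group differed by more than sampling noise (chi-square per degree of freedom 2.11 to 4.11). Totals of 15706672 to 17948383 made 3 counts equal to 0.166 to 0.191 CPM, for counting error only.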

Additional observations from a re-analysis of the deposited data

How the results depend on the processing

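With RLE factors, library totals without TMM, no filter, a minimum of 10 counts per library or limma-voom, 5 replication genes had an unadjusted p under 0.05 and 0 an adjusted p under 0.05. The first count was 2 in DESeq2, 2 with the replicate number as a block, 0 with the fold threshold added, and 0 to 5 with single libraries left out. The 0 with the fold threshold was fixed beforehand, since every log2FC of the 50 lay between −0.18 and 0.19. The count at an adjusted p under 0.05 was 0 in DESeq2 among the 26 genes with an adjusted p. It was 0 to 1 with single libraries left out, the 1 being *UHRF1* without NC replicate 2. The share of all genes tested was not counted for the alternatives. A moved count can thus not be set against the whole table. Across all genes tested, deviations of libraries with the same replicate number had correlations of 0.037, −0.082 and −0.035. With unlike numbers they were −0.11 to 0.13. The medians of the G2 and M markers, however, ran in the same order in both groups, replicate 1 highest and replicate 2 lowest. Replicate 2 also had the lowest median of the 50 genes in each group. Whether these lists pair by number was not tested separately. The median log2FC of the 50 genes ranged from −0.039 to 0.0097 with single libraries left out, less than the spread among NC libraries. The direction was the same under all 13 alternatives for 25 of the 50 genes, including *UHRF1*, *PCNA*, *ORC6*, *RFC1*, *RFC3*, *CHAF1A*, *LIG1* and *PRIM2*. It turned for the other 25. For *FEN1* it turned with library totals without TMM (log2FC −0.0033) and for *RRM1* with at least 10 counts in every library (0.00083). With single libraries left out the log2FC spanned −0.019 to 0.034 for *FEN1*, −0.0034 to 0.0037 for *RRM1*, −0.071 to 0.041 for *ORC1*, −0.021 to 0.11 for *ORC2*, −0.052 to 0.030 for *ORC5*, −0.046 to 0.033 for *CDC6*, −0.17 to 0.038 for *CDT1*, −0.14 to 0.012 for *GMNN*, −0.050 to 0.048 for *MCM4* and −0.071 to 0.064 for *MCM5*. It spanned −0.12 to 0.029 for *MCM6*, −0.068 to 0.0072 for *MCM7*, −0.061 to 0.044 for *MCM10*, −0.032 to 0.13 for *CDC45*, −0.016 to 0.13 for *GINS2*, −0.028 to 0.10 for *GINS3*, −0.16 to 0.033 for *CDC7*, −0.0026 to 0.095 for *POLA1* and −0.12 to 0.018 for *PRIM1*. It spanned −0.13 to 0.0017 for *POLD1*, −0.012 to 0.059 for *POLD2*, −0.051 to 0.012 for *POLE*, −0.31 to 0.17 for *POLE2*, −0.049 to 0.063 for *RFC5* and −0.071 to 0.023 for *CHAF1B*. Fewer libraries enter these fits, and the cause of each turn was not tested. Depth limited *POLE2* most, and the effect of rounding was not tested.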
